A study of Mus musculus with 18 samples.

Results

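The 10 genes described here mark the lateral plate mesoderm, the heart fields that form in it and the first contractile cells of the heart. They were chosen by gene symbol, with earlier results of these data known. The genes are Hand1, Hand2, Gata5, Isl1, Nkx2-5, Tbx20, Tbx5, Foxf1, Myl7 and Tnnt2, 10 of the 25279 genes in the count table. The libraries hold RNA of mouse embryonic stem cells of 2 genotypes, Oct1_cKO, a conditional knockout of Oct1, called cKO here, and Parental, 3 libraries for each genotype at days 0, 3 and 6 of a mesoderm-inducing culture. Oct1 is the protein of Pou2f1, a POU transcription factor related to the pluripotency factor Oct4. Both genotypes went through the same culture, on gelatin after the stem cells had been depleted, as the series' text puts it. That wording is not read here as removal of the stem cells themselves. The 6 groups are cKO and parental cells at day 0, at day 3 and at day 6. The labels name neither the Cre, the exons removed nor the number of clones, and do not say whether libraries came from separate cultures, so p-values measure the spread between these libraries, which may be technical.

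Lateral plate mesoderm is the flank of the mesoderm, set apart from the paraxial mesoderm that builds somites, and it gives rise to the heart, the body wall and the smooth muscle of the gut. BMP signals favour it. Hand, Gata, T-box, Isl1 and Nkx2-5 transcription factors then work together in the cardiac progenitors, Foxf1 marks the splanchnic layer that lines the gut and responds there to Hedgehog, and genes of the contractile apparatus such as Myl7 and Tnnt2 are switched on as cardiomyocytes form. None of these factors is restricted to the heart: Isl1 also marks motor neurons, and Hand1 also marks trophoblast.

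Promoter windows of 250 bases before the annotated start were read from RefSeq on GRCm38.p6 for the members that have one, 7 of the 10 genes with 8 windows in all. There was no window for Hand1, Tbx5 or Foxf1. Both strands were searched for the POU octamer ATGCAAAT, the Smad palindrome GTCTAGAC, the GC-rich Smad motif GGCGCC, the GATA motif AGATAA and the TATA box TATAAA, of which no pair of matches overlapped in these windows. Of 32851 windows of the same length, 1.6% hold the octamer, 0.167% the palindrome, 9.59% GGCGCC, 9.99% AGATAA and 12.4% TATAAA. None of the 8 windows holds the octamer, the palindrome or TATAAA, 2 hold GGCGCC (Hand2 and Isl1) and 2 hold AGATAA (Hand2 and 1 of the 2 windows of Tnnt2). The 4 windows below set the 2 that hold AGATAA beside 2 that hold none of the motifs. All 4 genes had libraries that did not overlap between the genotypes on at least 1 day. The same held for 52.4%, 40.1% and 51.5% of all tested genes at days 0, 3 and 6, so it does not set these 4 apart. The windows lie at chr9:24774304-24774553 on the minus strand (Tbx20), chr8:57320733-57320982 on the plus strand (Hand2), chr1:135836084-135836333 on the plus strand (Tnnt2) and chr11:5898783-5899032 on the minus strand (Myl7). They are written 5′ to 3′ along the gene, with the motif matches in capitals, AGATAA appearing as its reverse complement TTATCT.
Tbx20: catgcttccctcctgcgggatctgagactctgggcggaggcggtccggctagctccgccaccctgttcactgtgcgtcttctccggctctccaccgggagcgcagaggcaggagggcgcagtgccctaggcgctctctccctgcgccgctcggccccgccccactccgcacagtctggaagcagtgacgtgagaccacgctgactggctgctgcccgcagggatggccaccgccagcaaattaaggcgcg
Hand2: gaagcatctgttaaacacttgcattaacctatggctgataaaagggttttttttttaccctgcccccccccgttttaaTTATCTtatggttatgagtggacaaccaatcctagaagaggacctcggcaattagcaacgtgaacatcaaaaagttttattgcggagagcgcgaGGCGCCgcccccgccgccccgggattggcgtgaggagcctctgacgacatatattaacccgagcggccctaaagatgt
Tnnt2: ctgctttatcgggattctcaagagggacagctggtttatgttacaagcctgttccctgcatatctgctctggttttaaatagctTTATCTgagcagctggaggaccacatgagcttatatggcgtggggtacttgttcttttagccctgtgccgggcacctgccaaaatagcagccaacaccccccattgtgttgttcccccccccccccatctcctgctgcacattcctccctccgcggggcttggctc
Myl7: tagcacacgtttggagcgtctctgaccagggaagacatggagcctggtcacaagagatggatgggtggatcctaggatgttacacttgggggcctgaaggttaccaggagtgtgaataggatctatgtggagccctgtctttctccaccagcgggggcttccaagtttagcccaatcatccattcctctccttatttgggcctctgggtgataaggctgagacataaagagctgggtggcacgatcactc
A match or its absence describes the letters alone.

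All 10 genes were scarce RNAs. Library totals ran from 13704958 to 26995420 counts, but counts of these genes ran from 0 to 159: of 180 values, 104 were of 10 counts or fewer and 15 were 0. Values are given as CPM, counts scaled to library size with TMM factors, in the order of replicates 1, 2 and 3. The filter on low counts was passed by 7 genes, and Hand2, Gata5 and Tbx5 did not pass it. Nkx2-5 reached the count the filter asks for in all 3 libraries of 1 group only, the day 0 cKO cells, where it was high. Pou2f1 RNA, the check of the label, stood at 62.2 to 95.4 CPM in the 9 cKO libraries and 123 to 142 CPM in the 9 parental libraries, without overlap, and which exons these reads cover is not known. The cKO day 6 replicate 2 library stood apart: over 11382 genes its median distance from the mean of its group's other libraries was 0.320 on the log2 scale, against 0.0506 to 0.185 in the other 17 libraries. Day 0 libraries carry 1 number in their titles and day 3 and 6 libraries another, so the change between day 0 and day 3 cannot be told apart from that difference, while the genotypes share a number at each day. In bulk RNA, fewer cells of a type and less RNA per cell cannot be told apart.

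Between the genotypes, Tbx20 was higher in cKO cells at days 0 and 6, and Foxf1 was lower in them at day 0 and higher at day 6. At day 0, Nkx2-5 and Tbx20 were higher in cKO cells and Foxf1, Myl7 and Tnnt2 lower: 5 of the 7 tested genes passed an adjusted p of 0.05 in edgeR's quasi-likelihood test with Benjamini-Hochberg adjustment, beside 31.6% of all 20267 genes tested (15.1% higher, 16.5% lower). Nkx2-5 could be tested only because it was high in 1 of these groups, so its place in that count is no support for a difference. The 10 genes were chosen with earlier results of these data known, so that count is no support for an excess over all genes. At day 3 none of the 7 passed it, beside 15.7% of all genes (6.32% higher, 9.39% lower), and at an unadjusted p under 0.05 there was 1, Tnnt2. DESeq2 also called none at day 3. At day 6, Tbx20 and Foxf1 were higher in cKO cells and none was lower, 2 of 7 beside 45.6% of all genes (19.9% higher, 25.7% lower), so that these genes were not called more often than genes at large. The median log2 fold change of the 7 genes was -0.34, -0.24 and 0.32 at days 0, 3 and 6, where that of all tested genes was 0, -0.0046 and -0.09. Counting separation of the libraries over all 10 genes, cKO lay wholly above parental in 2 and wholly below in 3 at day 0 (25.7% and 26.7% of tested genes, 52.4% in all), above in 0 and below in 1 at day 3 (19.3% and 20.8%, 40.1% in all), and above in 3 and below in 0 at day 6 (20.9% and 30.6%, 51.5% in all).

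**Figure D1:**
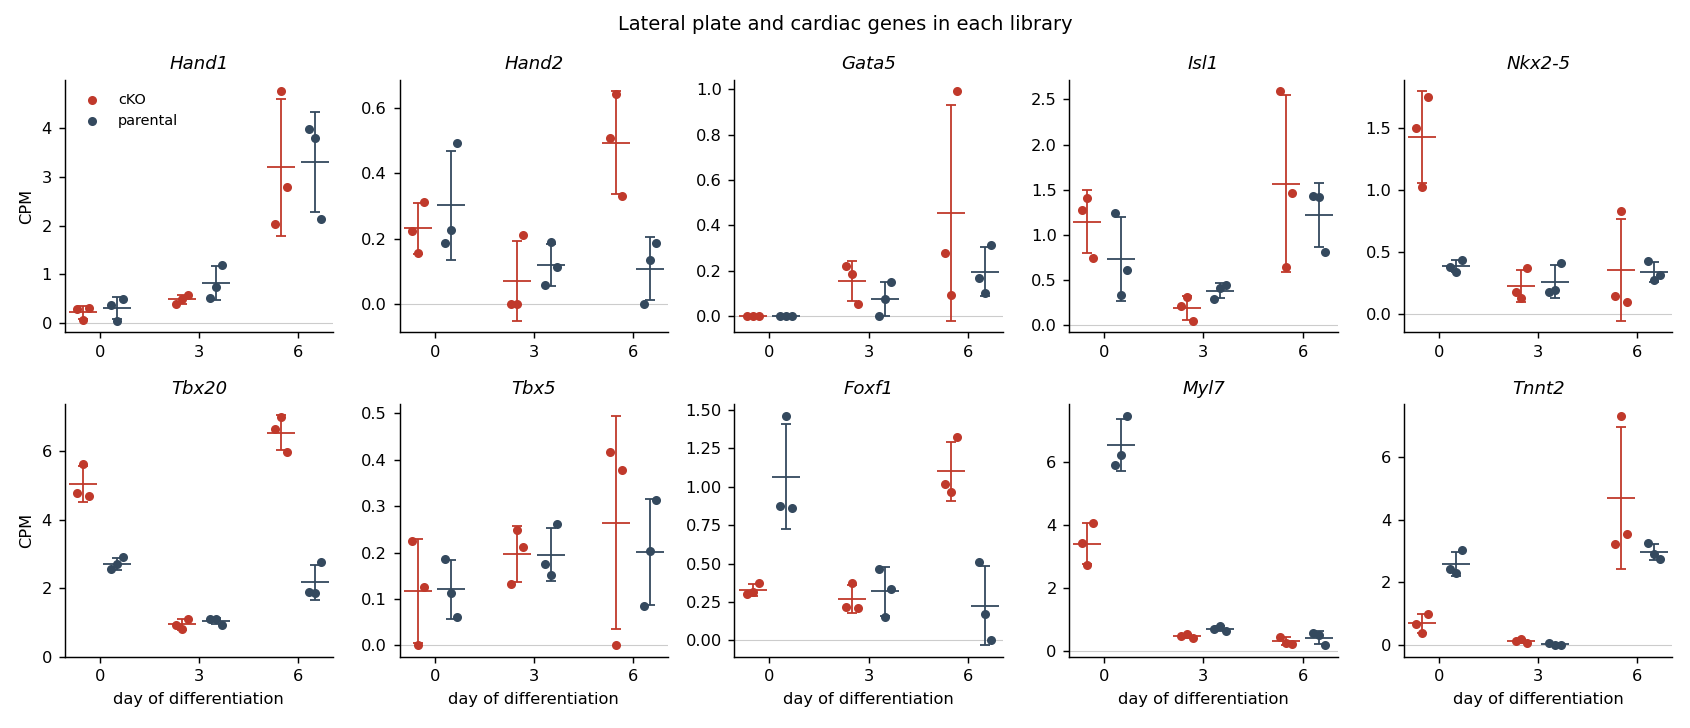
CPM of each of the 10 genes by day of differentiation, cKO in red and parental in dark blue; each point is 1 library, and the bar and whiskers are the mean and SD of 3. At day 6 Tbx20 sits at 6.0 to 7.0 CPM in cKO cells against 1.86 to 2.76 CPM in parental cells, while Hand1 overlaps between the genotypes, and Isl1, Nkx2-5, Tbx20 and Tnnt2 have their lowest mean at day 3 in both genotypes.

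Tbx20, a T-box factor needed for growth of the heart tube, had the smallest adjusted p of the 7 tested genes at day 6. The gene lies on chromosome 9 at 24718138 to 24774303 (GRCm38, minus strand). At day 6 it measured 6.66, 7.0 and 6.0 CPM in cKO cells, against 1.90, 1.86 and 2.76 CPM in parental cells. The highest parental library stayed below the lowest cKO library by more than the spread within either group. The log2 fold change was 1.61 ± 0.19 (SE, n = 3 each; edgeR adjusted p = 1.97e-06), and 1.58 without the library that stood apart. At day 0 Tbx20 measured 4.79, 5.64 and 4.69 CPM in cKO cells and 2.56, 2.70 and 2.90 CPM in parental cells, again without overlap, a log2 fold change of 0.89 ± 0.19 (edgeR adjusted p = 0.00145). At day 3 the genotypes overlapped, at 0.920, 0.805 and 1.11 CPM in cKO cells and 1.11, 1.09 and 0.932 CPM in parental cells (log2 -0.13 ± 0.23, edgeR adjusted p = 0.821). Ranked by mean level, day 6 cKO cells came first, then day 0 cKO cells, and neither overlapped the group after it; parental day 0 and day 6 cells overlapped each other, as did parental and cKO day 3 cells at the low end.

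Tbx5, the T-box factor of the first heart field and the forelimb, stayed at 9 counts or fewer in every library. Its highest value was 0.416 CPM, in a cKO day 6 library, and its range was 0 to 0.416 CPM in cKO day 6 cells against 0.0845 to 0.313 CPM in parental day 6 cells. Neighbouring groups overlapped throughout, so no order of its levels could be read at this depth. Without the filter, its day 6 log2 fold change was 0.53 ± 0.77 (edgeR adjusted p = 0.641).

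Foxf1, a forkhead factor of the splanchnic mesoderm, was higher in cKO cells at day 6 and lower in them at day 0. At day 6 it stood at 1.02, 0.967 and 1.32 CPM in cKO cells, against 0.507, 0.169 and 0 CPM in parental cells. All 3 cKO libraries lay above all parental ones, where 1 library had no count. The log2 fold change was 2.16 ± 0.53 (edgeR adjusted p = 0.00268), or 2.23 without the library that stood apart; with the 6 day 6 libraries fitted alone it missed the threshold, at 0.0509. At day 0 it was lower in cKO cells, at 0.299, 0.313 and 0.375 CPM against 0.873, 1.46 and 0.865 CPM in parental cells. That log2 fold change of -1.67 ± 0.57 (edgeR adjusted p = 0.0297) rests on 14 counts in the 3 cKO libraries together against 54 in the parental ones, and lost its call without any 1 of the cKO replicates or without parental replicate 2 (adjusted p 0.0736 to 0.135). At day 3 the groups overlapped, at 0.212 to 0.372 CPM in cKO cells and 0.151 to 0.468 CPM in parental cells.

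Foxf1 lies on chromosome 8 at 121084386 to 121088144 (GRCm38, plus strand), where the annotation also places Gm20388 on the same strand and Gm27530 on the opposite one. Hand2 and Gata5 overlap the antisense genes Hand2os1 and Gata5os in the same way. No source used here says whether the counting used strand, so reads of these pairs cannot be told apart.

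Genes that act with Foxf1 were set beside it, from lists written with earlier results of these data known. Foxf2, its close relative, was at 2.67 to 3.51 CPM in cKO and 0.0845 to 0.313 CPM in parental day 6 cells, a log2 fold change of 3.92 ± 0.46 (edgeR adjusted p = 2.18e-06). Of 8 tested Hedgehog pathway genes, 4 were higher and 1 lower in day 6 cKO cells, with a median log2 fold change of 0.66; without the library that stood apart 9 were tested, 5 higher and 1 lower, with a median of 1.56. The ligand Shh stood at 3.45 to 12.6 CPM in cKO cells against 0.125 to 0.203 CPM in parental cells (log2 5.75 ± 0.56), and both the transcription factor Gli1 (2.54 ± 0.30) and the Hedgehog-binding inhibitor Hhip (2.40 ± 0.32) were higher. The repressor Gli3 was lower (-0.42 ± 0.09). The receptor Ptch1, itself a target of the pathway, had a log2 fold change of 0.07 ± 0.30 (edgeR adjusted p = 0.874). At day 0, when Foxf1 was lower in cKO cells, 0 of the 8 were higher and 3 lower (Hhip, Gli3 and Ptch1; median -0.16), and at day 3 1 was higher, Smo, and 0 lower (median 0.04). Beside the counts of this list, 45.6% of all tested genes were called at day 6 (19.9% higher, 25.7% lower). The share was 31.6% at day 0 and 15.7% at day 3. Gli1 was not called at day 0 (0.56 ± 0.30, edgeR adjusted p = 0.168). In the library that stood apart, Shh, Gli1 and Hhip were the lowest of the 3 cKO libraries at day 6, while its Foxf1 value of 0.967 CPM lay close to the other two. A part of the Hedgehog pathway in the Foxf1 values was not tested.

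**Figure D2:**
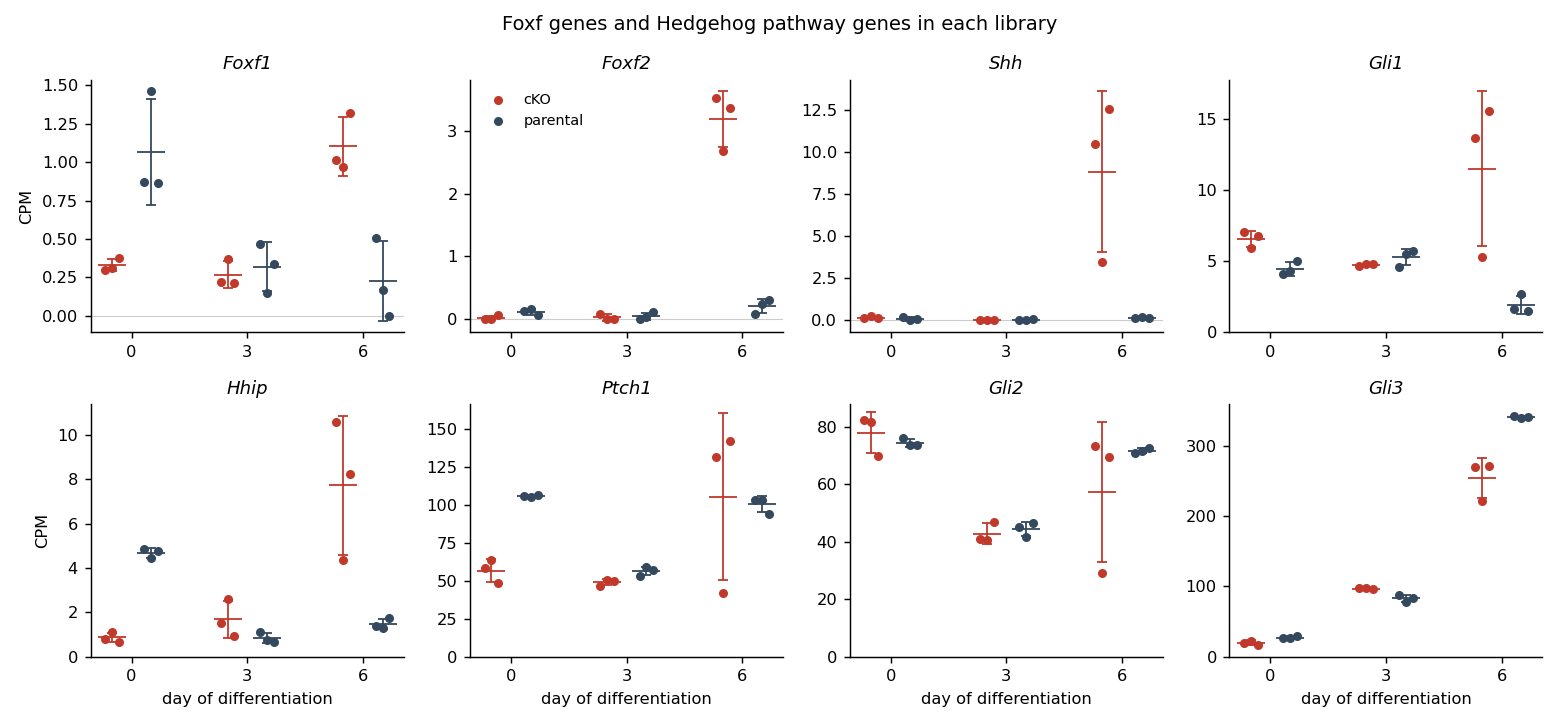
CPM of Foxf1, Foxf2 and 6 Hedgehog pathway genes by day of differentiation, cKO in red and parental in dark blue; points are libraries, bars and whiskers the mean and SD of 3. Foxf2 and Shh are near 0 in every group but day 6 cKO cells, where they reach 3.51 and 12.6 CPM, and Ptch1 spreads widely there around its parental level.

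Nkx2-5 and Isl1 are homeodomain factors of the cardiac progenitors. Nkx2-5 was a day 0 difference: 1.5, 1.02 and 1.75 CPM in cKO cells against 0.374, 0.337 and 0.432 CPM in parental cells. Every cKO library lay above every parental one. The log2 fold change of 1.90 ± 0.56 (edgeR adjusted p = 0.0134) is given as a description, since the gene passed the filter through the cKO day 0 libraries, where it was high. The call was lost without cKO replicate 3 (adjusted p = 0.0646) and without parental replicate 2 (0.0531). At days 3 and 6 it was not called. At day 3 Nkx2-5 measured 0.124 to 0.371 CPM in cKO and 0.175 to 0.410 CPM in parental cells. Its day 6 values were 0.139, 0.829 and 0.0944 CPM in cKO cells and 0.423, 0.271 and 0.313 CPM in parental cells. Of the 23 counts in the day 6 cKO libraries, 18 came from the library that stood apart. With it the log2 fold change was 0.09 ± 0.61 (edgeR adjusted p = 0.928), and without it -1.46 (0.0893).

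Isl1 had overlapping genotypes at all 3 days. At day 6 it measured 2.59, 0.645 and 1.46 CPM in cKO cells and 1.44, 1.42 and 0.814 CPM in parental cells, so that cKO cells held both the highest and the lowest library. The log2 fold changes were 0.63 ± 0.53, -1.02 ± 0.70 and 0.32 ± 0.44 at days 0, 3 and 6 (edgeR adjusted p = 0.409, 0.382 and 0.582). Of 6 tested markers of motor and sensory neurons, the other cells that carry Isl1, 1 was higher and 1 lower in day 6 cKO cells, and their summed level was 5.76 to 8.69 CPM in cKO cells and 9.23 to 9.90 CPM in parental cells, with a median log2 fold change of -0.17. At days 0 and 3, 1 of the 6 was higher and 0 lower. Called in either direction were 45.6%, 31.6% and 15.7% of all tested genes at days 6, 0 and 3.

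Hand1 and Hand2 are basic helix-loop-helix factors, Hand1 of the left ventricle and extraembryonic mesoderm and Hand2 of the second heart field and limb. Hand1 was called at no day between genotypes. At day 6 it measured 2.03, 4.74 and 2.79 CPM in cKO cells and 3.97, 3.79 and 2.13 CPM in parental cells, overlapping ranges whose log2 fold change was -0.07 ± 0.35 (edgeR adjusted p = 0.903). The highest of these values was that of the library that stood apart, without which it was -0.48 (0.182). Hand1 log2 fold changes were -0.34 ± 0.75 at day 0 and -0.79 ± 0.50 at day 3 (edgeR adjusted p = 0.797 and 0.331). Trophoblast markers, for other cells that carry Hand1, gave 1 higher and 4 lower of 6 tested in day 6 cKO cells (median log2 fold change -0.81). Their summed levels were 15 to 20.2 CPM in cKO cells and 24.5 to 28.3 CPM in parental cells. Of them, 3 were higher and 1 lower at day 0, and 1 higher and 3 lower at day 3. All tested genes were called in 45.6% at day 6, 31.6% at day 0 and 15.7% at day 3. Prl3d1, Prl2c2 and Tpbpa of this list were not in the count table, so these values do not measure trophoblast cells.

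Hand2 measured 0.509, 0.645 and 0.331 CPM in cKO day 6 cells, from 11, 14 and 7 counts. Parental day 6 cells had 0, 0.135 and 0.188 CPM, from 0, 4 and 3 counts. The 2 sets did not overlap, and the ratio of the pooled counts was 4.90 (95% counting interval 2.13 to 13.2). In a fit without the filter the log2 fold change was 2.30 ± 0.78 (edgeR adjusted p = 0.0248). DESeq2 gave 2.33 (adjusted p = 0.0285). It passed the filter without any 1 of 4 of the day 6 libraries. It was then called without cKO replicate 3 (2.43, edgeR adjusted p = 0.0171), parental replicate 2 (2.57, 0.0435) or parental replicate 3 (2.64, 0.0242), and not without parental replicate 1, the library at 0 (1.63, 0.0911). In these fits Hand2 passed the filter only through 2 cKO day 6 libraries, where it was high. Such calls are therefore no support for a difference. Hand2 was between 0 and 0.494 CPM in every other group, with overlapping neighbours.

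Gata5, a GATA factor of endocardium and endoderm, was at 0 counts in all 6 day 0 libraries, which allows up to 0.0712 CPM in cKO cells and 0.06 CPM in parental cells (3 counts over each group). At day 3 it reached 0.219, 0.186 and 0.0530 CPM in cKO cells and 0, 0.0753 and 0.149 CPM in parental cells. The 95% counting interval of the ratio of day 3 to day 0 counts, 9 against 0 in cKO cells and 6 against 0 in parental cells, began at 1.44 in cKO and at 0.835 in parental cells, so no increase was bounded in parental cells. Its day 6 values were 0.277, 0.0921 and 0.992 CPM in cKO cells and 0.169, 0.101 and 0.313 CPM in parental cells. The cKO mean there rests on replicate 3, which holds 21 of the 29 counts, and the groups overlapped (log2 1.36 ± 0.82 without the filter, edgeR adjusted p = 0.220). Of 6 tested endoderm markers, 3 were higher in day 6 cKO cells (Foxa2, Foxa1 and Sox17) and 1 lower (Cxcr4), with a median of 1.73. Summed levels of the list were 14.4 to 46.2 CPM in cKO and 31.4 to 32.3 CPM in parental cells. At day 0, 1 was higher and 0 lower, and 0 were called at day 3. The shares called over all tested genes were 45.6% at day 6, 31.6% at day 0 and 15.7% at day 3.

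Myl7 and Tnnt2 encode proteins of the contractile apparatus, the atrial regulatory light chain and cardiac troponin T. Both were lower in cKO cells at day 0. Myl7 measured 3.44, 2.74 and 4.07 CPM in cKO cells against 5.92, 6.24 and 7.47 CPM in parental cells. Tnnt2 measured 0.674, 0.392 and 1.0 CPM in cKO cells against 2.43, 2.31 and 3.03 CPM in parental cells. The groups did not overlap for either gene. The log2 fold changes were -0.93 ± 0.24 for Myl7 (edgeR adjusted p = 0.00546) and -1.87 ± 0.39 for Tnnt2 (0.00125). Markers of fibroblasts and feeder cells moved with them: of 9 tested, 0 were higher and 5 lower in day 0 cKO cells (median log2 fold change -1.11), and their summed level was 287 to 299 CPM in cKO cells against 918 to 986 CPM in parental cells. Of all tested genes, 15.1% were higher and 16.5% lower at day 0. The part of these markers in the day 0 differences was not tested.

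Per length of exon, Myl7 was above the other 9 genes at day 0, at 5.79 CPM per kilobase in cKO cells and 11.1 CPM per kilobase in parental cells. From day 3 on it was low. At day 3 it measured 0.482, 0.558 and 0.424 CPM in cKO cells against 0.701, 0.790 and 0.634 CPM in parental cells, the only gene of the 10 without overlap at that day. The log2 fold change of -0.54 ± 0.34 did not pass the threshold (edgeR adjusted p = 0.336). At day 6 the groups overlapped, at 0.236 to 0.462 CPM in cKO and 0.188 to 0.592 CPM in parental cells. Myl7 and Hand1 lie on chromosome 11, whose 921 genes of at least 5 CPM had a median log2 fold change of -0.38, -0.39 and -0.49 at days 0, 3 and 6, against 0.02, 0.03 and -0.03 for the 10461 genes elsewhere. The part of that shift in the values of Myl7 and Hand1 was not tested.

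Tnnt2 was scarcest at day 3, when cKO cells held 3, 3 and 1 counts and parental cells 1, 0 and 0. The pooled ratio of 7 counts to 1 was 8.53 (95% counting interval 1.1 to 385), and the log2 fold change of 2.63 ± 1.14 did not pass (edgeR adjusted p = 0.137). By day 6 it measured 3.24, 7.32 and 3.54 CPM in cKO cells, against 3.25, 2.91 and 2.76 CPM in parental cells. The cKO library at 7.32 CPM is the one that stood apart, and cKO replicate 1 lay within the parental range. Skeletal muscle markers summed to 358 CPM in that library, against 36.2 and 36.6 CPM in the other cKO day 6 libraries, and their part in its Tnnt2 value was not tested. Of that list Acta1 had the most RNA, averaging 26.0 CPM over the 18 libraries, with Tnnt1 next at 3.44 CPM. The sum therefore does not describe the list as a whole. The log2 fold change was 0.66 ± 0.30 (edgeR adjusted p = 0.0841), and 0.18 (0.564) without that library, while it passed without cKO replicate 1 (0.87, 0.0253) or replicate 3 (0.82, 0.0413). Fibroblast and feeder markers were again on the same side: 7 of 9 were higher and 0 lower in day 6 cKO cells (median 0.95; 8 higher without the library that stood apart), with summed levels of 1639 to 1697 CPM in cKO cells and 1077 to 1139 CPM in parental cells. Their part in the day 6 values of these genes was not tested. At day 3, 1 was higher and 1 lower, and the summed levels were 48.8 to 51.3 CPM in cKO and 49.5 to 50.8 CPM in parental cells. Beside these counts, 19.9% of all tested genes were higher and 25.7% lower at day 6, and 6.32% and 9.39% at day 3.

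**Figure D3:**
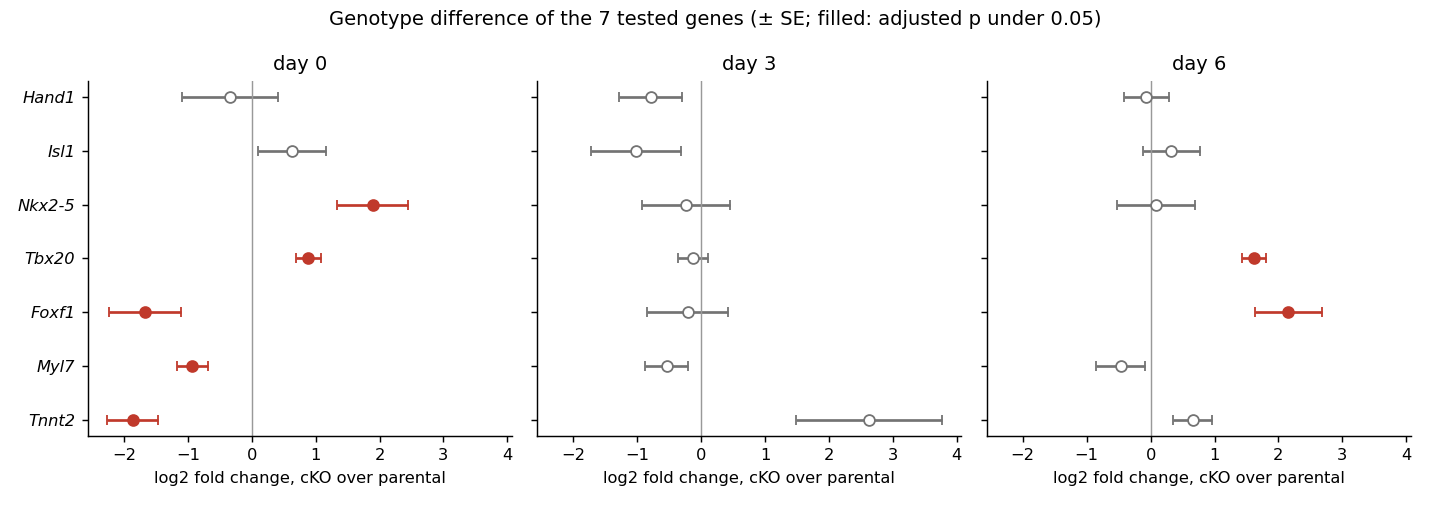
Log2 fold change of cKO over parental cells with its SE for the 7 tested genes at days 0, 3 and 6; filled red points passed an adjusted p of 0.05. Tbx20 and Foxf1 are filled at days 0 and 6, Foxf1 at -1.67 and then 2.16, and no point is filled at day 3.

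Along the course, Isl1, Nkx2-5, Tbx20 and Tnnt2 had their lowest mean at day 3 in both genotypes, and Hand1 had its lowest mean at day 0 in both. From day 0 to day 3, 5 fell and 0 rose in cKO cells, beside 76.0% of all tested genes called (35.0% lower, 41.0% higher): Isl1 (log2 -2.53 ± 0.64), Nkx2-5 (-2.64 ± 0.59), Tbx20 (-2.40 ± 0.21), Myl7 (-2.81 ± 0.30) and Tnnt2 (-2.48 ± 0.61). Nkx2-5 passed the filter through the cKO day 0 libraries, where it was high, so its place in that count is no support for a fall. In parental cells 4 fell and 1 rose, beside 75.5% (34.4% lower, 41.1% higher): Tbx20 (-1.38 ± 0.21), Foxf1 (-1.80 ± 0.52), Myl7 (-3.19 ± 0.27) and Tnnt2 fell, and Hand1 rose (1.47 ± 0.56, edgeR adjusted p = 0.0229). The call of Hand1 was lost without parental day 0 replicate 2 (0.124) or day 3 replicate 3 (0.117). With 1 count at day 3, Tnnt2 in parental cells is better given as a ratio of pooled counts, 0.0055 (95% counting interval 0.000138 to 0.0312).

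From day 3 to day 6, 5 genes rose and 0 fell in cKO cells, beside 66.1% of all genes called (31.3% higher, 34.8% lower): Hand1 (2.70 ± 0.45), Isl1 (3.00 ± 0.60), Tbx20 (2.78 ± 0.21), Foxf1 (2.05 ± 0.54) and Tnnt2 (5.21 ± 0.47). In parental cells 4 rose and 0 fell, beside 65.3% (32.6% higher, 32.7% lower): Hand1 (1.97 ± 0.40), Isl1 (1.65 ± 0.52), Tbx20 (1.04 ± 0.21) and Tnnt2, whose pooled counts rose 211-fold (95% counting interval 37.4 to 8368). Myl7 was not called over this interval: its log2 change was -0.57 ± 0.39 in cKO cells (edgeR adjusted p = 0.213) and -0.64 ± 0.33 in parental cells (0.101). In the fit without the filter, which Hand2 did not pass, Hand2 was higher at day 6 than at day 3 in cKO cells (2.81 ± 0.86, edgeR adjusted p = 0.00821). That value rests on 32 pooled counts against 4, a ratio of 7.17 (95% counting interval 2.54 to 27.9). In parental cells the log2 change of Hand2 was -0.29 ± 0.91 (0.816).

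The difference between the genotypes' changes was tested as an interaction. From day 0 to day 3 it was called in 2 genes, beside 18.6% of all genes (9.47% higher, 9.12% lower): Tbx20 fell further in cKO cells (log2 difference -1.02 ± 0.30, edgeR adjusted p = 0.0233) and Tnnt2 fell less (4.49 ± 1.21, 0.0135), the second resting on 7 counts against 1 at day 3. From day 3 to day 6 it was again called in 2, beside 26.0% (12.4% higher, 13.6% lower): Tbx20 (1.74 ± 0.30, edgeR adjusted p = 0.000369) and Foxf1 (2.37 ± 0.83, 0.0429) increased more in cKO cells. The first call of Tbx20 was lost without any 1 of cKO day 0 replicate 2, parental day 0 replicate 1, cKO day 3 replicates 1 or 2 and parental day 3 replicate 2 (adjusted p 0.0543 to 0.0595), and that of Tnnt2 without cKO day 3 replicate 2 (0.0555). The call of Foxf1 was lost without any 1 of replicates 1 or 3 of either genotype at day 3, cKO day 6 replicate 3 and parental day 6 replicates 2 or 3 (0.0612 to 0.115). The comparisons share the day 3 libraries and are not independent of each other.

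Other genes of the same programmes were called in both directions. So were genes at large, in 45.6% at day 6 (19.9% higher, 25.7% lower), 31.6% at day 0 and 15.7% at day 3. Of 18 tested lateral plate and cardiac regulators outside the 10 genes, 7 were higher and 5 lower in day 6 cKO cells with a median log2 fold change of 0.15, and 9 and 5 with a median of 0.30 without the library that stood apart. Fgf10, a second heart field signal (2.25 ± 0.33), and Hey2, a ventricular Notch target (1.77 ± 0.28), were higher. All 5 lower genes, given after their values were seen, were Meis1 (-1.47 ± 0.25), Osr1 (-1.44 ± 0.28), Wt1 (-1.32 ± 0.30), Hey1 (-0.87 ± 0.30) and Tbx3 (-0.51 ± 0.16). Prrx1 (0.16 ± 0.27) and Mef2c (-0.05 ± 0.18) were not called. The summed level of the list was 184 to 375 CPM in cKO and 451 to 483 CPM in parental cells. At day 0, 5 were higher and 4 lower (median -0.31), with Tbx3 (0.52 ± 0.12) and Fgf10 (1.05 ± 0.26) higher and Hopx (-1.37 ± 0.29) and Wt1 (-1.64 ± 0.47) lower. At day 3, 2 were higher and 2 lower (median 0.06), Hopx among the higher ones at 15.3 to 17.4 CPM in cKO cells against 1.83 to 2.46 CPM in parental cells (2.87 ± 0.24).

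Heart and smooth muscle contractile genes, 21 tested, gave 0 higher and 5 lower at day 0 (median -0.58), 5 and 1 at day 3 (0.14), and 9 and 6 at day 6 (0.67). The day 6 median was 0.23, with 9 and 7, without the library that stood apart. Over all tested genes 31.6%, 15.7% and 45.6% were called at days 0, 3 and 6. The higher ones at day 6 included Myh7 (1.38 ± 0.14), a myosin of slow and embryonic ventricular muscle, the calcium pump Atp2a2 (0.52 ± 0.06), and 2 genes strongly expressed in smooth muscle and fibroblasts, Tpm1 (1.45 ± 0.16) and Acta2 (1.39 ± 0.19). The other 5 higher genes, given after their values were seen, were Mybpc3 (3.58 ± 0.93), Myl3 (2.87 ± 0.51), Tnnc1 (2.22 ± 0.41), Cnn1 (1.18 ± 0.26) and Tagln (1.06 ± 0.23). The 6 lower ones were Ttn (-2.06 ± 0.32), Nppa (-1.67 ± 0.50), Tnni3 (-1.30 ± 0.35), Hcn4 (-1.16 ± 0.27), Actn2 (-1.04 ± 0.24) and Actc1 (-0.68 ± 0.22). Levels of heart muscle genes were unequal at day 6. Actc1 was at 76.2 to 153 CPM in cKO and 196 to 205 CPM in parental cells, and Ttn at 3.70 to 9.12 CPM in cKO and 19.9 to 27.2 CPM in parental cells. Myh6 was at 0.462 to 0.737 CPM in cKO and 0.338 to 0.564 CPM in parental cells, and Myl2 at 0.0944 to 0.507 CPM in cKO and 0.0423 to 0.135 CPM in parental cells. Nppa was at 0.231 to 1.47 CPM in cKO and 2.0 to 2.75 CPM in parental cells, and Tnni3 at 0.322 to 1.11 CPM in cKO and 1.35 to 2.03 CPM in parental cells. Skeletal muscle markers, which share contractile genes with the heart, gave 1 higher and 3 lower of 6 tested at day 6 (median -0.42), with Myog lower (-5.19 ± 0.38), 0 called at day 0 and 1 lower at day 3; the day 6 summed level was 36.2 to 358 CPM in cKO and 28.4 to 33.9 CPM in parental cells. Acta1 had the most RNA of that list over all libraries.

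BMP pathway genes, 24 tested, were called higher in 14 and lower in 3 at day 6 (16 and 2 without the library that stood apart), with a median log2 fold change of 0.69. Among all tested genes, 45.6% were called at day 6 (19.9% higher, 25.7% lower), 31.6% at day 0 and 15.7% at day 3. The list mixes ligands, receptors and targets with inhibitors such as Nog, Chrd and Grem1, so its counts do not measure pathway activity. Bmp4, a ligand that promotes lateral plate fates, was at 26.4 to 49.6 CPM in cKO cells against 4.87 to 6.14 CPM in parental cells (2.73 ± 0.24, edgeR adjusted p = 1.21e-07). The ligands Bmp2 (1.20 ± 0.17) and Bmp7 (0.88 ± 0.14) were higher, and the target Msx1 was lower (-2.76 ± 0.34). At day 0 the list gave 4 higher and 5 lower (median 0.09), Bmp4 among the higher (1.88 ± 0.29) and Bmp7 among the lower (-1.10 ± 0.15), and at day 3 4 higher and 2 lower (median 0.10). Of the remaining mesoderm and blood vessel lists at day 6, paraxial mesoderm gave 1 higher and 0 lower of 6 (median 0.45), intermediate mesoderm 1 and 3 of 5 (-1.86), and endothelium and blood 5 and 1 of 9 (0.76). At day 0 these 3 lists gave 1 and 0, 0 and 0, and 1 and 1, and at day 3 they gave 0 and 0, 0 and 0, and 0 and 1.

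**Figure D4:**
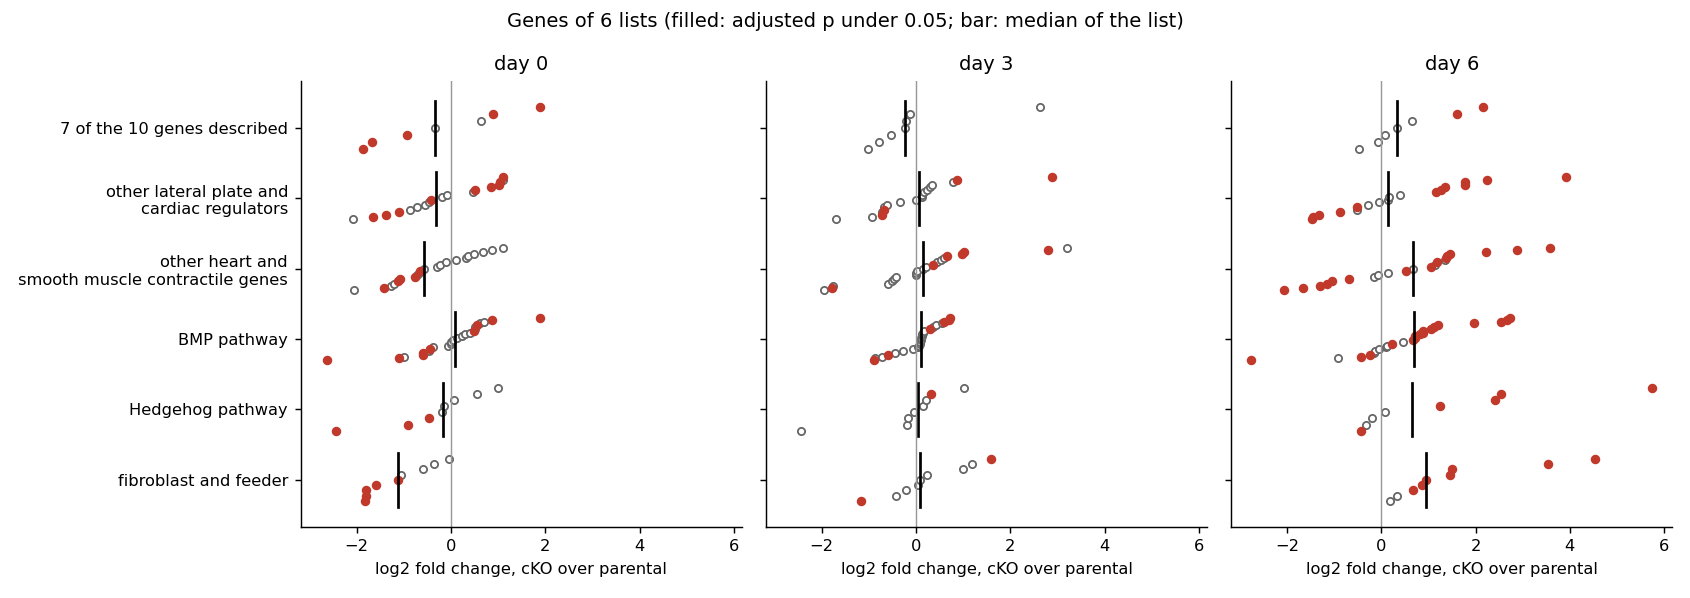
Log2 fold change of cKO over parental cells at days 0, 3 and 6 for single genes (points, filled red where the adjusted p was under 0.05) of 6 lists, with the median of each list as a black bar. At day 6 the BMP list lies mostly to the right of 0 with a median of 0.69, and the 7 tested genes of the 10 have a median of 0.32 with Tbx20 and Foxf1 filled.

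Likeness of pattern was measured as Pearson's r of log2 CPM over the 18 libraries, for the 4 genes that averaged at least 1 CPM, against 10831 other genes of at least 5 CPM. The libraries share days and genotypes, so r describes the pattern over 6 groups. Nearest to Tbx20 were Stom (0.969), Ptbp3 (0.967) and Fermt2 (0.964), and nearest to Hand1 were Trim56 (0.945), Tmcc1 (0.936) and Kctd1 (0.934). Myl7 ran closest to Cox7a1 (0.986), Ace (0.984) and Mep1b (0.984). Tnnt2 ran closest to Prss23 (0.973), Col1a2 (0.966) and Adamts5 (0.966), of which Col1a2 is on the fibroblast list. Among the 7 tested genes themselves, r was highest for Tbx20 with Tnnt2 (0.718) and Isl1 (0.696), was 0.0873 between the contractile genes Myl7 and Tnnt2, and lowest for Hand1 with Myl7 (-0.729).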

How the data were processed

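RNA of 18 libraries was measured, 3 in each of 6 groups. The authors deposited a raw read count per gene and library, per the file headers without normalization. Novoalign, DESeq2 1.10.0, mm10 and GRCm38 are named in the submitters' processing notes; no source used here names the counting tool, the annotation or the strand setting. Members and lists were chosen with earlier results of these data known.

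The fit used edgeR 4.0.16, with limma 3.58.1, under R 4.3.3: filterByExpr, TMM factors and a robust quasi-likelihood fit of group means over 18 libraries, tested with an F test and Benjamini-Hochberg adjustment over 20267 genes at 0.05. The biological coefficient of variation was 13.5%, and the SE is the absolute log2 fold change over the square root of F. The scripts were tested on simulated data. CPM uses TMM-scaled totals. Counting intervals are exact at 95% (Python 3.11.15, scipy 1.17.1, numpy 2.4.6, pandas 2.3.3, matplotlib 3.10.9), and a count of 0 allows 3 counts per group; both cover counting error only. Per list and genotype comparison, the text could name the 4 called genes with the lowest adjusted p and the 2 uncalled genes with most RNA; Myh6 and Myl2, and the called contractile genes and lower regulators of day 6, were named after their values were seen. Alternatives were RLE factors, total-count scaling, TMM factors from genes outside chromosome 11, no filter, at least 1 CPM in 3 libraries, DESeq2 1.42.0, the libraries of each comparison alone, and each library left out. Applying them to the other lists was chosen after seeing the data. Every pair of replicates differed by more than counting noise (lowest median chi-square 0.552, against 0.455).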

Additional observations from a re-analysis of the deposited data

Results flagged for a closer look

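In 4 results the change over time differed between the genotypes by a test of the difference itself, edgeR's quasi-likelihood test of the interaction with Benjamini-Hochberg adjustment. From day 0 to day 3 the log2 change of Tbx20 differed by -1.02 between cKO and parental cells and that of Tnnt2 by 4.49. From day 3 to day 6 the log2 change of Tbx20 differed by 1.74 and that of Foxf1 by 2.37. Of all tested genes, 18.6% were called in the first interaction and 26.0% in the second. In all 3 cKO libraries at day 6, Tbx20 lay above every parental library, and so did Foxf1, as did 20.9% of all tested genes. With 1 library left out, the call was lost in 7 of 12 fits for Foxf1, 5 of 12 for Tbx20 from day 0 to day 3, and 1 of 12 for Tnnt2. That of Foxf1 was also lost with the libraries of its comparison alone (edgeR adjusted p = 0.0815). The value of Tnnt2 rests on 7 counts in cKO cells and 1 in parental cells at day 3.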

How the results depend on the processing

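Over 7 alternative settings and 18 left-out libraries, 823 of 876 values of the 63 single-gene results kept their direction and their side of the threshold. The direction turned in 27 values, all of changes not called in either fit, and 0 called values turned. Hand1 at day 6 (-0.07) was 0.01 with RLE or chromosome 11 left out of TMM, 0.03 without the filter or with its comparison alone, and 0.02 in DESeq2, and Nkx2-5 at day 6 (0.09) was -0.00 with total scaling. Leaving out libraries gave ranges across 0 for genotype changes of Hand1 at day 0 (-0.86 to 0.18) and day 6 (-0.48 to 0.17), Nkx2-5 at day 3 (-0.77 to 0.29) and day 6 (-1.46 to 0.53), Foxf1 at day 3 (-0.57 to 0.10) and Isl1 at day 6 (-0.25 to 0.68). It did so from day 3 to 6 for Nkx2-5 in cKO cells (-0.91 to 1.18) and Foxf1 in parental cells (-1.47 to 0.10), and in the interactions of days 0 and 3 for Hand1 (-0.97 to 0.07) and of days 3 and 6 for Nkx2-5 (-1.22 to 0.86) and Myl7 (-0.27 to 0.31). Counts of called genes are listed where they moved to or from 0 or by more than 1.5 times. Smaller moves are left out, such as 3 instead of 2 higher at day 6 with DESeq2 or without the filter. Another is 2 instead of 3 lower at day 0 with some libraries left out. With the filter at 1 CPM in 3 libraries, 1 gene instead of 2 was higher in day 0 cKO cells, since Nkx2-5 was not tested. With the libraries of each comparison alone, 1 instead of 2 was higher at day 6, 0 instead of 1 higher at day 3 than day 0 in parental cells, 2 instead of 1 lower in the interaction of days 0 and 3 (Nkx2-5 at -2.17), and 1 instead of 2 higher in that of days 3 and 6. Nkx2-5 was tested through the cKO day 0 libraries, where it was high, so its call there is no support for a difference. DESeq2 called 1 instead of 0 higher at day 3 than day 0 in cKO cells, Gata5 (3.50, DESeq2 adjusted p = 0.0488), which the main fit did not test. That value rests on 9 counts against 0, and edgeR without the filter did not call it (edgeR adjusted p = 0.0535). Leaving out libraries gave 1 to 2 higher at day 0 (1 without cKO replicate 3 or parental replicate 2), 2 to 4 higher at day 6 (4 without cKO replicate 3), and 0 to 1 higher at day 3 than day 0 in parental cells (0 without day 0 replicate 2 or day 3 replicate 3). The 4 at day 6 include Hand2, which passed the filter there only through cKO day 6 libraries, where it was high. Leaving out libraries also gave 0 to 1 in either direction of the interaction of days 0 and 3, and 1 to 2 higher in that of days 3 and 6. The cause of these moves was not tested. Counts of the other lists stayed within 1.5 times in 322 of 390 cases. TMM, RLE and total scaling put the median of all genes at -0.09, -0.02 and -0.16 at day 6. Depth kept Hand2, Gata5 and Tbx5 below the filter. No paired analysis was possible because the labels number no replicates.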
